A study of Rattus norvegicus with 39 samples.

Results

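The immediate early genes (IEGs) examined were 9 genes set by name and Ensembl identifier: Fos, Fosb, Junb, Egr1, Arc, Nr4a1, Egr2, Btg2 and Pim1. Of these, 8 had a row among the 23978 genes of the count table, and Junb is not analysed here. The identifiers were ENSRNOG00000008015 for Fos, ENSRNOG00000046667 for Fosb, ENSRNOG00000019422 for Egr1, ENSRNOG00000043465 for Arc and ENSRNOG00000007607 for Nr4a1, and those of Egr2, Btg2 and Pim1 were read from the tables in which the authors pair identifiers with symbols. The measurement was polyribosome-bound mRNA, pulled down from nucleus accumbens (NAc) tissue and sequenced as 39 libraries, 1 per rat. The rats were female, heterozygous Drd1a-iCre or Drd2-iCre, and carried a Cre-dependent viral RiboTag (an HA-tagged Rpl22 ribosomal protein) in the NAc, so that immunoprecipitation (IP) of the tag recovered mRNA from medium spiny neurons (MSNs) of the D1 or the D2 type. They received 6 intraperitoneal injections of saline or 10 mg/kg ketamine, every injection in proestrus or every injection in diestrus. The 8 groups crossed D1 or D2, proestrus or diestrus, and saline or ketamine, with 5 libraries each, except for ketamine-treated proestrus D2-Cre rats with 4, where the authors excluded 1 library. Rats were scheduled to be killed 4 days after the last injection, or occasionally a day later where the estrous cycle was longer, and 30 min after being placed back in the test chamber without drug. The ketamine-treated rats that were sequenced had been selected by the authors for an increase in locomotor activity over the treatment, and no such selection applied to the saline-treated rats.

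IEGs are transcribed within minutes of strong synaptic input, without new protein synthesis, when calcium and kinase signals reach transcription factors already bound near their start sites. The cAMP response element (CRE), bound by CREB, and the CArG box, bound by serum response factor, are the classical sites for these signals. In the striatum the IEG response to dopamine and glutamate is widely used as a mark of recently active neurons, and FosB products are known to accumulate with repeated drug exposure. Because the rats were killed 30 min after a return to the chamber, the levels below are those of drug-free rats after re-exposure to the context, and no group was taken from the home cage.

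Upstream sequence was looked up for the members to see which carry these sites, in the 250 bases before the start of each gene (RefSeq, build GRCr8, while the counts were made on mRatBN7.2). An entry was found for Fosb, Egr1, Nr4a1, Egr2, Btg2 and Pim1, and none was matched for Fos and Arc. A full CRE (TGACGTCA) was found in Btg2 and in 1.59% of all 33469 promoters of the same length. A short CRE motif (TGACG or CGTCA, either strand, which a full CRE also contains) was found in Nr4a1, Egr2, Btg2 and Egr1 and in 18.2% of all promoters. A CArG box was found in Egr2 and Egr1 and in 1.5% of all promoters. None of these letters occurred in the windows of Fosb and Pim1. The sequences of Egr2 and Btg2, which with Arc (no entry) were the members called between D2 and D1 libraries, and of Nr4a1, which held 4 short motifs, are shown 5′ to 3′ on the strand of the gene, with the CRE, short motifs and CArG box in capitals. A match is a match of letters only.

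Egr2, chr20:21054442-21054691, minus strand: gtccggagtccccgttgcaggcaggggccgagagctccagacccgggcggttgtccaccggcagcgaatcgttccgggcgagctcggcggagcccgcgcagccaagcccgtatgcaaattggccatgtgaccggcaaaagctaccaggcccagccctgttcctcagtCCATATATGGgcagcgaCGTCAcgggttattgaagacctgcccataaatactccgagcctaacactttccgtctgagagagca
Btg2, chr13:48087691-48087940, minus strand: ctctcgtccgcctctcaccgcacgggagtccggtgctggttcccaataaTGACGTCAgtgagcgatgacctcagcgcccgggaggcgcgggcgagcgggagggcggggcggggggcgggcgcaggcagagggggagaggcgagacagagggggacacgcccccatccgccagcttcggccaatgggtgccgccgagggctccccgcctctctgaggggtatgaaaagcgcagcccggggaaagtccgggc
Nr4a1, chr7:134259888-134260137, plus strand: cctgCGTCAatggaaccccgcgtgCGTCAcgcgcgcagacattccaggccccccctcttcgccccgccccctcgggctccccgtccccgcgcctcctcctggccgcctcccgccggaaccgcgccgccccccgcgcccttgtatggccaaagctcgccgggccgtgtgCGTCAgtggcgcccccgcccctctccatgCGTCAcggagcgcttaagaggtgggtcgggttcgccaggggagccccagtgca

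Total counts ranged from 2396517 to 43224256 per library, with a median of 20494896. Library 39, a diestrus D2 saline library, had the lowest total, the next lowest being 16118050, and in log2 CPM it stood farthest from the other libraries. Library 22, a proestrus D2 ketamine library, had the highest total. Adora2a, a D2-MSN marker and the only D1 or D2 marker with a paired identifier, was between 141 and 221 CPM in the 20 D1 libraries and between 452 and 1063 CPM in the 19 D2 libraries, without overlap. Defining D1 markers were not among the paired identifiers. The summed level of 6 paired glial and vascular markers (Gfap, Gja1, Mog, Aif1, Flt1 and Rgs5) was 39.5 to 61.4 CPM in D1 and 55.4 to 147 CPM in D2 saline libraries, and 44.4 to 59.1 CPM in D1 and 50.2 to 104 CPM in D2 ketamine libraries. The interneuron markers Sst and Nos1 ran the other way, with a median of 375 CPM of Sst in D1 and 136 CPM in D2 libraries, and of 31.7 and 7.76 CPM of Nos1. Each of these 8 markers was detected in every library.

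All 8 IEGs were detected in every library. The fewest reads were 5 counts of Pim1, in library 39, and the median per library was 53 counts for Pim1, 125 for Btg2, 353 for Egr2, 466 for Fos, 683 for Fosb, 2346 for Arc, 2459 for Nr4a1 and 5313 for Egr1. Levels are given as CPM (counts scaled to library size) after TMM normalization over the 39 libraries, a scale that does not correct for transcript length, so they are compared between groups and not between genes. For each gene the highest group mean was 1.33-fold (Egr1) to 2.21-fold (Egr2) the lowest. The spread within groups was of similar size, with a median coefficient of variation over the 8 groups of 20.1% for Egr1 up to 33.9% for Egr2. In the order of the 8 group means, each of the 7 pairs of neighbours overlapped for every gene, and the lowest and the highest group overlapped for every gene but Btg2.

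**Figure D1:**
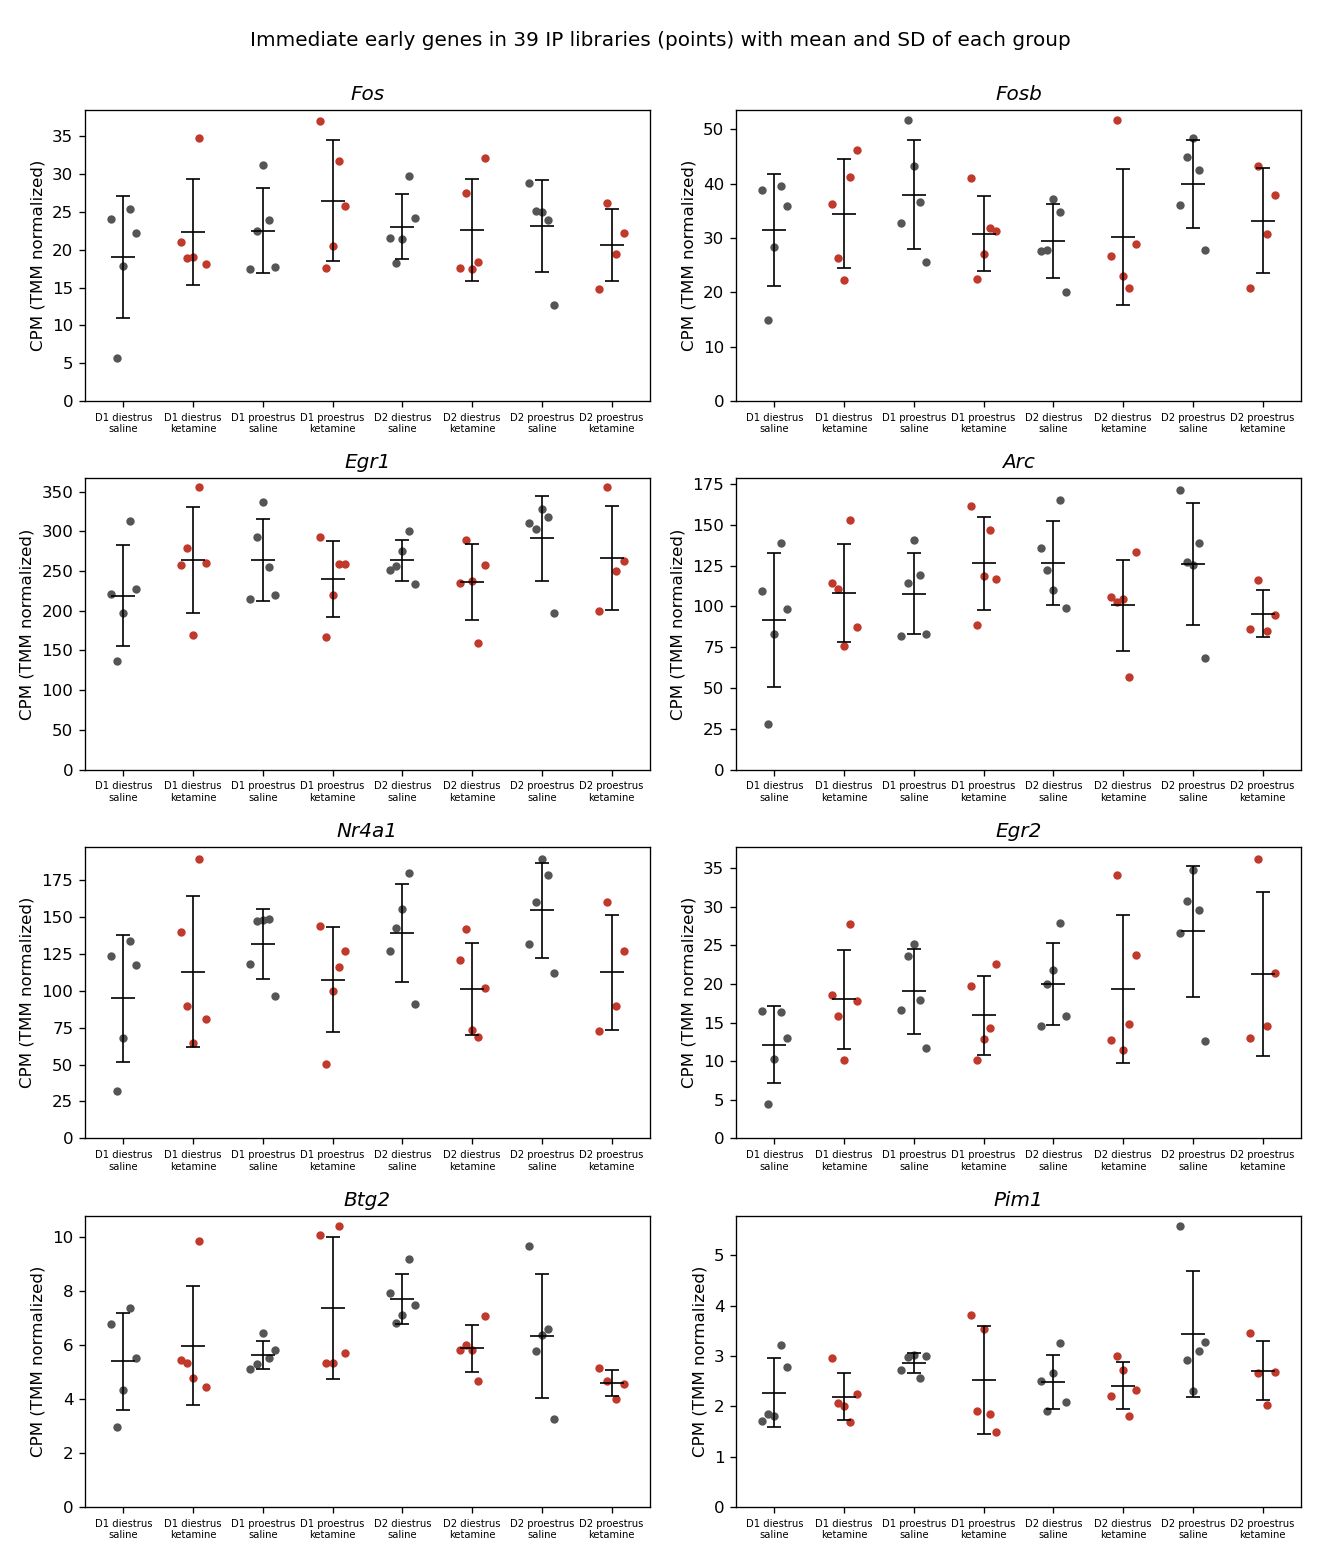
Level of the 8 IEGs in each library (points, CPM with TMM normalization, linear axes from 0) in the 8 groups, saline in grey and ketamine in red, with the mean (long bar) and SD (error bar) of each group. The groups overlap in nearly every panel, and the diestrus D1 saline group contains library 11, which had the lowest level of all 39 libraries for 7 of the 8 genes, Pim1 being the exception.

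The 2 AP-1 genes were Fos, whose product pairs with Jun proteins, and its relative Fosb. Mean Fos was highest in proestrus D1 ketamine libraries, at 26.5 ± 7.98 CPM (SD, n = 5), and lowest in diestrus D1 saline libraries, at 19.0 ± 8.01 CPM (SD, n = 5). Fosb had its highest mean in proestrus D2 saline libraries, at 39.9 ± 8.13 CPM (SD, n = 5), and its lowest in diestrus D2 saline libraries, at 29.5 ± 6.81 CPM (SD, n = 5). The 2 zinc finger genes, Egr1 and Egr2, and the orphan nuclear receptor gene Nr4a1 shared an order at its ends. All of these had their highest mean in proestrus D2 saline libraries (Egr1 291 ± 53.2, Egr2 26.8 ± 8.47 and Nr4a1 154 ± 32.2 CPM, SD, n = 5) and their lowest in diestrus D1 saline libraries (Egr1 219 ± 63.4, Egr2 12.1 ± 5.01 and Nr4a1 94.8 ± 43.2 CPM, SD, n = 5). The low end turned on library 11 for several genes. Without it the diestrus D1 saline mean was 240 ± 50.5 CPM for Egr1 and 110 ± 29.3 CPM for Nr4a1 (SD, n = 4), and diestrus D2 ketamine libraries were then lowest for both, while for Fos and Arc proestrus D2 ketamine libraries were then lowest, and Egr2 kept its lowest group. Arc, which encodes a synaptic protein that takes part in AMPA receptor endocytosis, was highest in diestrus D2 saline libraries, at 127 ± 25.6 CPM (SD, n = 5), and lowest in diestrus D1 saline libraries, at 91.5 ± 41.1 CPM (SD, n = 5). Btg2, an antiproliferative gene whose product promotes mRNA deadenylation, was highest in diestrus D2 saline libraries, at 7.72 ± 0.924 CPM (SD, n = 5), and lowest in proestrus D2 ketamine libraries, at 4.60 ± 0.475 CPM (SD, n = 4). Pim1, a serine/threonine kinase gene, was highest in proestrus D2 saline libraries, at 3.43 ± 1.25 CPM (SD, n = 5), and lowest in diestrus D1 ketamine libraries, at 2.19 ± 0.473 CPM (SD, n = 5).

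Ketamine was compared with saline within each cell type and cycle stage, to ask whether repeated ketamine left a difference in these genes after drug-free re-exposure to the context. No IEG was called in any of the 4 comparisons, in any direction, at a Benjamini-Hochberg adjusted p under 0.1 over all genes tested (quasi-likelihood test of edgeR). Few genes of any kind were called, namely 0.00759% of 13183 in proestrus D1-MSNs, 0.0227% of 13214 in diestrus D1-MSNs, 0% of 13414 in proestrus D2-MSNs and 0% of 13455 in diestrus D2-MSNs. DESeq2 with the same 2 surrogate variables called 16, 10, 1 and 0 genes, again with no IEG among them. An unadjusted p under 0.05 was found for 5.8%, 2.66%, 3.41% and 2.64% of genes, and for 1 of the 32 IEG comparisons. In bulk IP libraries, fewer active cells and less mRNA per cell cannot be told apart. For 26 of the 32 comparisons the 95% interval of the change lay within a 2-fold change up or down, and the other 6 intervals reached further.

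In proestrus D1-MSNs the 8 log2 fold changes lay between -0.27 (Nr4a1) and 0.40 (Btg2), 3 above 0 and 5 below. With single libraries left out Nr4a1 ran from -0.47 (without library 34) to -0.11 (without library 10), and Egr2, at -0.23, ran from -0.52 without library 34 (edgeR unadjusted p = 0.000475, the lowest edgeR adjusted p of its leave-outs being 0.572) to -0.10 without library 26. Fos read 17.5, 20.4, 25.8, 31.7 and 37.0 CPM in the ketamine libraries and 17.4, 17.7, 22.4, 23.9 and 31.1 CPM in the saline libraries. The ranges overlapped, with 31.7 and 37.0 CPM above every saline library (log2 fold change 0.29, standard error 0.155, edgeR adjusted p = 0.865). Fosb read 22.4, 27.1, 31.3, 31.8 and 41.1 CPM with ketamine and 25.6, 32.8, 36.5, 43.3 and 51.7 CPM with saline (log2 fold change -0.26, standard error 0.19, edgeR adjusted p = 0.906). The 2 AP-1 genes therefore had estimates of opposite sign, and both intervals included 0. Leaving out single libraries kept these signs but moved the sizes, Fos to 0.146 without library 2, 0.189 without library 1 and 0.191 without library 34, and Fosb to -0.145 without library 9, -0.399 without library 1 (edgeR unadjusted p = 0.00234), -0.402 without library 33 and -0.410 without library 34 (edgeR unadjusted p = 0.00812). With 2 surrogate variables Btg2 was the 1 IEG with an unadjusted p under 0.05. It read 5.33, 5.34, 5.72, 10.1 and 10.4 CPM with ketamine and 5.13, 5.30, 5.52, 5.81 and 6.44 CPM with saline, and libraries 2 and 26 carried the 2 high values (log2 fold change 0.40, standard error 0.16, edgeR unadjusted p = 0.0265, adjusted p = 0.823). Without library 26 the edgeR estimate was 0.27 and the unadjusted p 0.163, and without library 2 they were 0.30 and 0.0898. Without the saline library 17 they were 0.27 and 0.165. Without surrogate variables no IEG had an unadjusted p under 0.05 in proestrus D1-MSNs, the lowest from edgeR being 0.0790. The 2-sided exact permutation test of Btg2 levels there gave an unadjusted p of 0.294.

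In diestrus D1-MSNs 7 of the 8 estimates lay above 0, from -0.06 (Pim1) to 0.52 (Egr2). Egr2 read 10.1, 15.8, 17.7, 18.5 and 27.8 CPM in the ketamine libraries and 4.49, 10.3, 13.0, 16.4 and 16.5 CPM in the saline libraries (log2 fold change 0.52, standard error 0.28, edgeR unadjusted p = 0.102). The estimate was 0.325 without library 11 and at most 0.67 with another library left out. The lowest of these was library 11 and the highest library 28, which also held the lowest and the highest Arc of the 10 libraries. Arc read 27.8, 83.2, 98.3, 109 and 139 CPM with saline and 75.6, 87.1, 111, 114 and 153 CPM with ketamine. Without library 11 only 2 of the 8 estimates lay above 0, so the shared direction rested on that library.

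In D2-MSNs most estimates lay below 0, 6 of 8 in proestrus (from -0.47 for Pim1 to 0.05 for Egr1) and 7 of 8 in diestrus (from -0.54 for Nr4a1 to 0.11 for Fos). Without surrogate variables all 8 lay below 0 in both stages, at -0.47 to -0.13 in proestrus and -0.47 to -0.0015 in diestrus. The tally depended on single libraries, with 5 of 8 above 0 in proestrus without library 5, 4 without library 6 and 0 without library 22 or 37, and 4 of 8 above 0 in diestrus without library 31. The proestrus estimate of Pim1 was -0.26 without library 5. The 8 genes varied together from library to library, so their directions are not 8 independent observations. In diestrus, Nr4a1 read 68.7, 73.6, 102, 121 and 142 CPM with ketamine and 90.8, 127, 142, 155 and 180 CPM with saline (log2 fold change -0.54, standard error 0.28, edgeR unadjusted p = 0.0983). Btg2 read 4.67, 5.81, 5.83, 6.02 and 7.10 CPM with ketamine and 6.82, 7.14, 7.50, 7.95 and 9.19 CPM with saline, so that 4 of the 5 ketamine libraries lay below every saline library and the fifth, library 40, within their range. The difference of the mean log2 levels was -0.40 (2-sided exact permutation test, unadjusted p = 0.0159, the lowest of the 32, where 5 against 5 allow 0.00794). The edgeR estimate with surrogate variables was -0.30 with a standard error of 0.14 (unadjusted p = 0.0549, adjusted p = 1.00). In proestrus, Btg2 read 4.02, 4.55, 4.68 and 5.17 CPM with ketamine and 3.27, 5.80, 6.40, 6.58 and 9.69 CPM with saline, the lowest of the 9 libraries being the saline library 37 (log2 fold change -0.36, standard error 0.22, edgeR unadjusted p = 0.127). This estimate rested on the ends of the saline range, being -0.64 without library 37 (edgeR unadjusted p = 0.00599) and -0.0919 without library 5 (edgeR unadjusted p = 0.678). In none of the 32 comparisons were all libraries of 1 treatment above all of the other, where 0.75%, 0.418%, 1.17% and 0.672% of 14129 genes were in proestrus D1-, diestrus D1-, proestrus D2- and diestrus D2-MSNs.

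**Figure D2:**
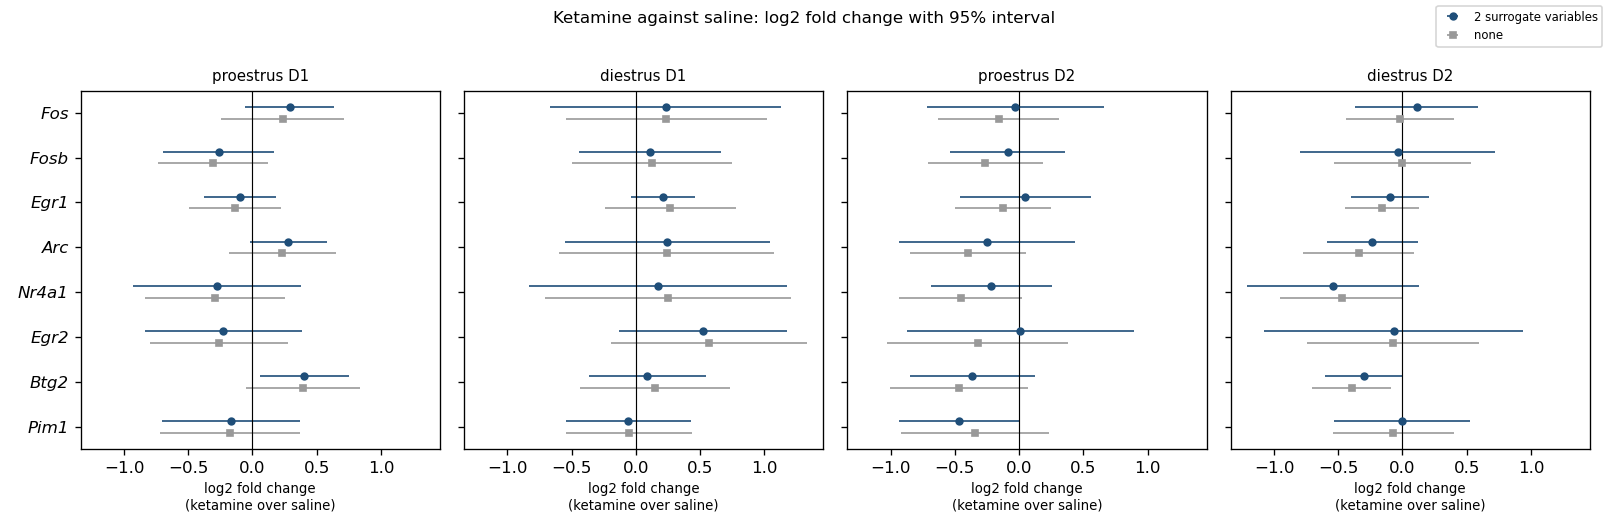
Log2 fold change of ketamine over saline for the 8 IEGs in each cell type and cycle stage, with the 95% interval, from the edgeR model with 2 surrogate variables (blue circles) and with none (grey squares). In the proestrus D1 panel the interval of Btg2 with surrogate variables lies above 0, and in the D2 panels most points lie left of 0 with intervals that nearly all cross it.

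The interaction of ketamine with cycle stage was fitted within each cell type. In D1-MSNs 0 of 13593 genes were called by edgeR (0%, with 4.91% at an unadjusted p under 0.05 and 6 genes called by DESeq2 with 2 surrogate variables), and the ketamine change of Egr2 was lower in proestrus than in diestrus by a log2 difference of -0.86 (standard error 0.35, unadjusted p = 0.0282, adjusted p = 0.972 from edgeR). That of Egr1 was lower by -0.37 (standard error 0.17, unadjusted p = 0.0474, adjusted p = 0.972 from edgeR). Leaving out 1 library at a time, these differences ranged from -1.05 to -0.66 for Egr2 and from -0.45 to -0.28 for Egr1. Without surrogate variables no IEG had an unadjusted p under 0.05 in D1-MSNs, the lowest from edgeR being 0.0813. In D2-MSNs 0% of 13881 genes were called, 1.75% had an unadjusted p under 0.05, DESeq2 called 0 genes, and the lowest unadjusted p of an IEG was 0.489.

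D2 libraries were compared with D1 libraries over both cycle stages, with the stage in the model, first in saline-treated rats. Egr2 was the 1 of the 8 IEGs that was called, and it was higher in D2 libraries. At this threshold 28.8% of 13689 genes were called, 14.6% with a higher level in D2 libraries, so the share among the IEGs was not above that of genes in general. Egr2 had a lowest, median and highest level of 4.49, 16.5 and 25.2 CPM in the 10 D1 libraries and 12.6, 24.2 and 34.7 CPM in the 10 D2 libraries, and the ranges overlapped (log2 fold change 0.61, standard error 0.20, edgeR adjusted p = 0.0410). The call was lost when library 1, 5, 17, 25 or 39 was left out, with adjusted p values from edgeR of 0.541, 0.217, 0.291, 0.142 and 0.309, and the estimate ran from 0.37 without library 1 to 0.74 without library 37. Of the other IEGs, 6 had estimates above 0, among them Nr4a1 at 0.39 (adjusted p = 0.170), Arc at 0.34 (adjusted p = 0.234), Btg2 at 0.31 (adjusted p = 0.144) and Egr1 at 0.20 (adjusted p = 0.134), all from edgeR. Btg2 and Egr1 were called when library 27 or library 37 was left out, with adjusted p values from edgeR of 0.0911 and 0.0241 for Btg2 and 0.0619 and 0.0355 for Egr1. Without library 1 the estimates were 0.0111 for Egr1, 0.0915 for Arc, 0.18 for Btg2 and 0.18 for Nr4a1, and without library 5 they were 0.0442 for Egr1, 0.11 for Arc and 0.11 for Btg2. Egr1, Arc and Nr4a1 were also lower by over 1.5 times without library 17 (0.0919, 0.18 and 0.23) or library 39 (0.10, 0.20 and 0.24), Egr1 and Arc without library 25 (0.0879 and 0.22), and Egr1 without library 3 (0.11). The glial and vascular marker sum had a median of 54.6 CPM in D1 and 61.1 CPM in D2 saline libraries with overlapping ranges, and Gja1, Mog and Flt1 were called higher in D2. Both interneuron markers were called lower in D2, Sst at -1.61 and Nos1 at -1.78 (edgeR adjusted p = 6.22e-06 and 9.14e-07). The part of these markers in the Egr2 difference was not tested.

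In ketamine-treated rats 2 of the 8 IEGs were called, Arc and Btg2, and both were lower in D2 libraries. At this threshold 18% of 13850 genes were called, 8.16% with a higher level in D2 libraries (1130 genes, against 1362 with a lower level). Btg2 had a lowest, median and highest level of 4.45, 5.40 and 10.4 CPM in 10 D1 libraries and 4.02, 5.17 and 7.10 CPM in 9 D2 libraries. The medians were close, and the highest D1 libraries lay above every D2 library (log2 fold change -0.45, standard error 0.14, edgeR adjusted p = 0.0302). Arc had a lowest, median and highest level of 75.6, 115 and 162 CPM in D1 libraries and 56.7, 102 and 133 CPM in D2 libraries, again with overlap (log2 fold change -0.34, standard error 0.12, edgeR adjusted p = 0.0690). Without surrogate variables neither was called, at adjusted p values of 0.284 for Btg2 and 0.380 for Arc from edgeR. Nor was either called with 1 surrogate variable, by DESeq2 without them, or with blocks of library numbers in their place. Without library 28 the adjusted p from edgeR was 0.107 for Btg2 and 0.200 for Arc, and the Arc call was also lost without library 2, 4, 26, 30 or 32, with adjusted p values of up to 0.245. Of the glial and vascular markers Gja1 and Flt1 were called higher in D2 ketamine libraries, while the ranges of the marker sum overlapped. The interneuron markers were called lower in D2 ketamine libraries, the direction of Arc and Btg2, with Sst at -1.63 and Nos1 at -1.82 (edgeR adjusted p = 3.68e-06 and 2.01e-05). The part of these markers in the Arc and Btg2 differences was not tested. Egr2, called in saline-treated rats, had a log2 fold change of 0.25 in ketamine-treated rats (standard error 0.26, edgeR adjusted p = 0.614), which was 0.0922 without library 16, 0.0973 without library 22 and 0.42 without library 28.

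**Figure D3:**
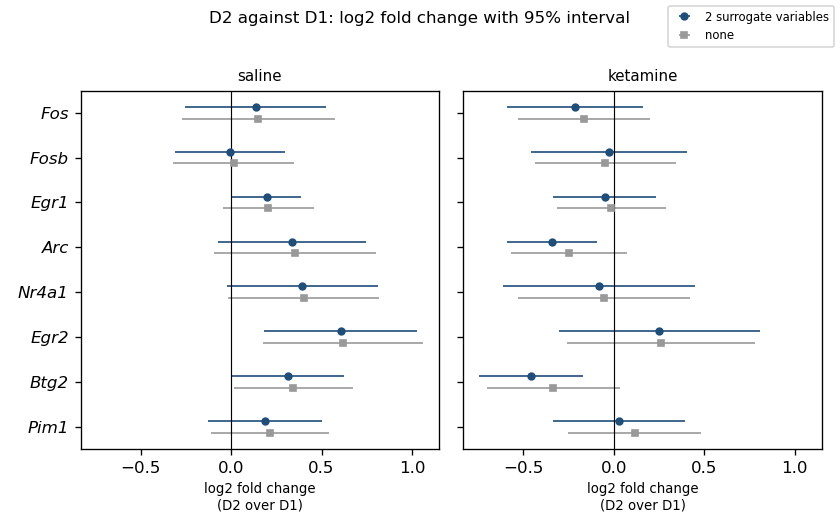
Log2 fold change of D2 over D1 libraries for the 8 IEGs in saline-treated and ketamine-treated rats, with the 95% interval, from the edgeR model with 2 surrogate variables (blue circles) and with none (grey squares). Arc and Btg2 lie right of 0 in the saline panel and left of 0 in the ketamine panel, and with surrogate variables the intervals of Egr1, Egr2 and Btg2 clear 0 in the saline panel and those of Arc and Btg2 in the ketamine panel.

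Of the 8 IEGs, 7 had estimates above 0 in saline-treated rats (Fosb the exception) and 6 below 0 in ketamine-treated rats (Egr2 and Pim1 the exceptions), so that Fos, Egr1, Arc, Nr4a1 and Btg2 turned sign. Several of these signs were unstable. Leaving out 1 library could take the saline estimate of Fos and the ketamine estimates of Egr1 and Nr4a1 across 0. In 1 model of 39 libraries the saline estimates of Fos, Egr1 and Arc lay below 0. Whether the D2 against D1 change differed between treatments was tested as the interaction of ketamine with cell type over all 39 libraries, a comparison added after these values were seen. Of 14129 genes 0% were called by edgeR, 2.31% had an unadjusted p under 0.05, and DESeq2 called 1 gene, which was not an IEG. The interaction was -0.53 for Btg2 (standard error 0.25, unadjusted p = 0.0403, adjusted p = 1.00) and -0.38 for Arc (standard error 0.25, unadjusted p = 0.150, adjusted p = 1.00), both from edgeR. Without surrogate variables all 8 IEGs lay below 0, from -0.69 to -0.0639, against 7 of 8 with them. In that fit 2 had an unadjusted p under 0.05 (edgeR, lowest 0.00749, lowest adjusted p = 0.665). With surrogate variables and 1 library left out at a time, the Btg2 interaction ranged from -0.63 to -0.42 and its unadjusted p from 0.0113 to 0.0913. In proestrus alone it was -0.70 for Btg2 (standard error 0.29, unadjusted p = 0.0238, adjusted p = 0.999 from edgeR), with 0% of 13774 genes called, 2.87% at an unadjusted p under 0.05 and 0 called by DESeq2. In diestrus alone 0% of 13738 genes were called, 2.53% had an unadjusted p under 0.05, DESeq2 called 0, and the lowest unadjusted p of an IEG was 0.150.

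Proestrus was compared with diestrus within each cell type over both treatments, to ask whether the stage in which the rats were treated and killed moved these genes. In D1-MSNs no IEG was called, with 0.00736% of 13593 genes called. The 8 estimates all lay above 0, between 0.05 and 0.25, and the intervals of all 8 included 0. Without library 11 the estimate for Fosb was -0.0052, and the other 7 stayed above 0. Arc, for example, had a lowest, median and highest level of 27.8, 104 and 153 CPM in diestrus and 82.1, 118 and 162 CPM in proestrus (log2 fold change 0.23, standard error 0.16, edgeR adjusted p = 0.999), and its estimate was 0.13 without library 11. In D2-MSNs 0% of 13881 genes were called by edgeR, 7.86% had an unadjusted p under 0.05, DESeq2 called 9 genes, and none of these was an IEG. Btg2 had the lowest unadjusted p of the 8, with 4.67, 6.96 and 9.19 CPM in diestrus and 3.27, 5.17 and 9.69 CPM in proestrus as lowest, median and highest levels (log2 fold change -0.32, standard error 0.13, unadjusted p = 0.0202, adjusted p = 0.614 from edgeR).

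The spread within groups was shared between the genes. After each gene's group means were subtracted, Fos, Fosb, Egr1, Arc, Nr4a1, Egr2 and Btg2 rose and fell together from library to library, and Pim1 did so less closely. With 1 library per rat, differences between rats and between preparations cannot be told apart. Over the 39 libraries, all 28 pairs of the 8 genes had a Pearson's r above 0, from 0.11 to 0.89 with a median of 0.77. The 21 pairs without Pim1 each had a Benjamini-Hochberg adjusted p under 0.05 for both r and Spearman's rho (permutation test with 100000 draws within groups, adjusted over 28 pairs), and none of the 7 pairs with Pim1 did. The closest pair was Fos and Arc, with r = 0.89 and rho = 0.82 (permutation p = 1e-05 for each, the smallest that 100000 draws can give, adjusted p = 1.87e-05 and 2.00e-05). Fosb and Egr2 had r = 0.88 and rho = 0.87 with the same p values. Among pairs without Pim1 the lowest was Fosb and Btg2, with r = 0.48 and rho = 0.41 (permutation p = 0.00435 and 0.0150, adjusted p = 0.00580 and 0.0201). The closest pair with Pim1 was Arc and Pim1, with r = 0.34 and rho = 0.31 (permutation p = 0.0636 and 0.0790, adjusted p = 0.0810 and 0.101).

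Leaving out the 2 libraries farthest from the median gave r = 0.80 for Fos and Arc, 0.86 for Fosb and Egr2 and 0.39 for Fosb and Btg2. The median r was 0.82 over the 20 D1 libraries and 0.58 over the 19 D2 libraries, and the difference between these was not tested. In the mean of the 8 scaled genes, library 11 stood lowest, with 7 of the 8 genes at the lowest level of their group. Library 37 (proestrus D2 saline) and library 10 (proestrus D1 ketamine) likewise held the group's lowest level of 7 genes. Libraries 27 (diestrus D1 saline) and 31 (diestrus D2 saline) held the group's highest level of 7 genes. Without library 11 the median r over the 28 pairs was 0.68, with all 28 above 0.

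**Figure D4:**
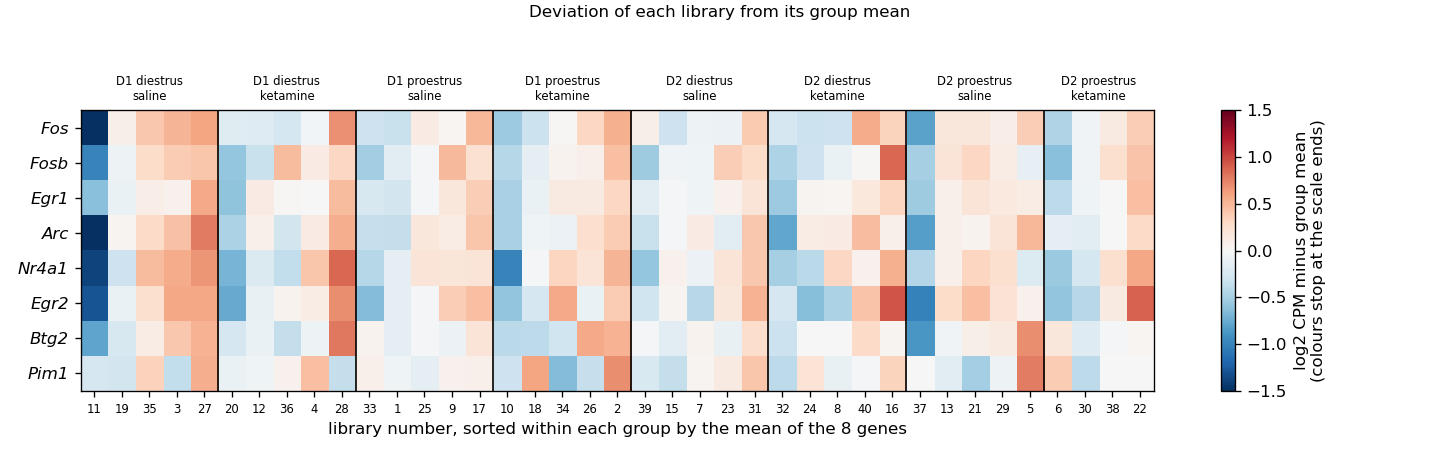
Deviation of each library from the mean of its group, in log2 CPM, for the 8 IEGs (rows) in the 39 libraries (columns, by library number), with libraries sorted inside each group by the mean of the 8 genes. Columns are mostly of 1 colour from Fos to Btg2, with library 11 the deepest blue, and the Pim1 row follows less closely.

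Set against all 14122 genes compared, the mean of the other members was followed most closely by Egr1 (rank 1, rho = 0.88), and Fos, Arc, Nr4a1 and Egr2 each ranked 2, Fosb 8 and Btg2 32, while Pim1 ranked 3174 (rho = 0.23). The median rho of all genes to these means was between 0.01 and 0.02. These ranks are a description over 39 libraries whose genes share library, depth and composition. The 15 genes most like the mean of the members had a rho between 0.75 and 0.90. Symbols were known for only 1971 of the 23978 genes, and 5 of the 15 were among them: Rgs2, a regulator of G protein signalling, at 0.82, Phlda1 at 0.81, Ptgs2, which encodes cyclooxygenase-2, at 0.80, the salt-inducible kinase gene Sik1 at 0.79, and Vps37b at 0.75. The closest of all, ENSRNOG00000015719, had a rho of 0.90 and no paired symbol. Rgs2, Ptgs2 and Sik1 are 3 of the 4 paired genes of a list of IEG effectors, and the fourth, Ier3, had a rho of -0.15 (rank 10222). The paired late response genes had a rho of 0.43 (Nptx1), 0.51 (Nptx2) and 0.56 (Vgf).

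Several other measures were set beside the mean of the members in the same way, as a description. The mean had an r of 0.51 and a rho of 0.50 with Adora2a over the 39 libraries after group means were subtracted, and r was 0.51 again without the 2 libraries farthest from the median. With the total count r was 0.19, and with the 8 glial, vascular and interneuron markers it lay between -0.31 and 0.25. The 2 surrogate variables held 51.1% and 53.3% of the variance of the member mean in the proestrus and diestrus D1 ketamine comparisons (10 libraries each), 24.9% and 34.9% in those of D2-MSNs (9 and 10 libraries), and 55.6% in the D1 cycle comparison (20 libraries). Any 2 variables hold some share in so few libraries, and each comparison above was also fitted without them.

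Other genes of the same response were taken from lists of IEG transcription factors, IEG effectors and late response genes, of which few could be paired. Of 22 IEG transcription factors 1 was paired (Atf3), and its counts were too low to test. Of 26 effectors 4 were paired and tested, and of 12 late response genes 3. None of these 7 genes was called in the 9 ketamine comparisons and interactions (63 tests), and 2 tests had an unadjusted p under 0.05. The effector Rgs2 had ketamine log2 fold changes of -0.12, 0.06, 0.03 and 0.04 in proestrus D1-, diestrus D1-, proestrus D2- and diestrus D2-MSNs. In the same order Sik1 had -0.05, 0.29, -0.08 and -0.17, Ptgs2 -0.08, -0.04, -0.01 and -0.09, and Ier3 0.05, 0.12, 0.12 and 0.23. Among late response genes, Nptx1 and Nptx2, neuronal pentraxins of excitatory synapses, had -0.38 and -0.27 in proestrus D2-MSNs (edgeR unadjusted p = 0.0323 and 0.264, adjusted p = 0.999 for both), and between -0.11 and 0.15 in the other strata. The neuropeptide precursor gene Vgf had -0.04, -0.14, -0.11 and -0.15. The other unadjusted p under 0.05 was that of Sik1 in the interaction of ketamine with cell type in diestrus, at -0.47 (edgeR unadjusted p = 0.0454, edgeR adjusted p = 1.00).

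Between the cell types more of these genes moved. In saline-treated rats 3 of the 4 effectors were called higher in D2 libraries, Ptgs2 at 0.57 (standard error 0.09, adjusted p = 9.49e-05), Rgs2 at 0.33 (standard error 0.08, adjusted p = 0.00545) and Sik1 at 0.31 (standard error 0.10, adjusted p = 0.0314), all from edgeR, and 1 of the 3 late response genes, Vgf, was called lower, at -0.17 (standard error 0.07, edgeR adjusted p = 0.0919). In ketamine-treated rats 2 of the 4 effectors were called higher in D2 libraries, Ptgs2 at 0.49 (standard error 0.14, edgeR adjusted p = 0.0275) and Rgs2 at 0.24 (standard error 0.06, edgeR adjusted p = 0.00756). Of the late response genes Nptx1 at -0.43 and Nptx2 at -0.72 were called lower (edgeR adjusted p = 0.00400 and 0.000514). Vgf was called in 3 of 10 alternative settings and Nptx1 in 5 of 10, and both calls were lost with no surrogate variables, with 1, with DESeq2 without them and with blocks of library numbers. Vgf and Sik1 were not called with at least 10 counts in every library. Without libraries 22 and 39 the saline calls of Rgs2, Sik1 and Vgf were lost, and in 1 model of all 39 libraries the saline calls of Rgs2, Sik1, Ptgs2 and Vgf and the ketamine call of Nptx1 were lost. In that model the saline estimates were 0.0820 for Rgs2, 0.17 for Sik1 and 0.26 for Ptgs2, and over the 10 settings Vgf ran from -0.22 to -0.0967. The background of 28.8% and 18% called applies here too.

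Since the members moved together, the ratio of 1 IEG to another within a library removes part of the variation between libraries, and all 28 ratios were compared between ketamine and saline in the 4 strata, 112 in all. This measure was added after the levels had been seen. None passed an adjusted p under 0.1 (Benjamini-Hochberg over 112, lowest 0.296), and 16 had an unadjusted p under 0.05 in a 2-sided exact permutation test, 10 of them in proestrus D1-MSNs and 2 in each other stratum. Ratios that share a gene are not independent, and the share of ratios to other genes at that p was not computed. In 2 the treatments did not overlap, both in proestrus D1-MSNs, the ratios of Fosb to Fos and of Fosb to Arc, where 0.285% of 112968 ratios of a member to any other tested gene did not overlap. The same share was 0.0655% in diestrus D1-, 0.323% in proestrus D2- and 1.98% in diestrus D2-MSNs, with no ratio between members there. The ratios to other genes were taken from log2 CPM and not from counts, and most other genes did not vary with the members. Such ratios keep shared variation that a ratio of 2 members removes, so these shares are not a like background. The Fosb to Fos count ratio was 1.19 ± 0.130 (SD, n = 5) in ketamine libraries, from 1.00 to 1.33, and 1.71 ± 0.384 (SD, n = 5) in saline libraries, from 1.39 to 2.31 (exact permutation test, unadjusted p = 0.00794, the smallest that 5 against 5 allow, adjusted p = 0.296). In the other strata the ranges overlapped. The ratio was 1.61 ± 0.579 with ketamine and 1.80 ± 0.473 with saline in diestrus D1-MSNs (SD, n = 5 each), 1.59 ± 0.130 (SD, n = 4) and 1.78 ± 0.340 (SD, n = 5) in proestrus D2-MSNs, and 1.35 ± 0.376 and 1.31 ± 0.346 in diestrus D2-MSNs (SD, n = 5 each). The pair was singled out after its values were seen.

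**Figure D5:**
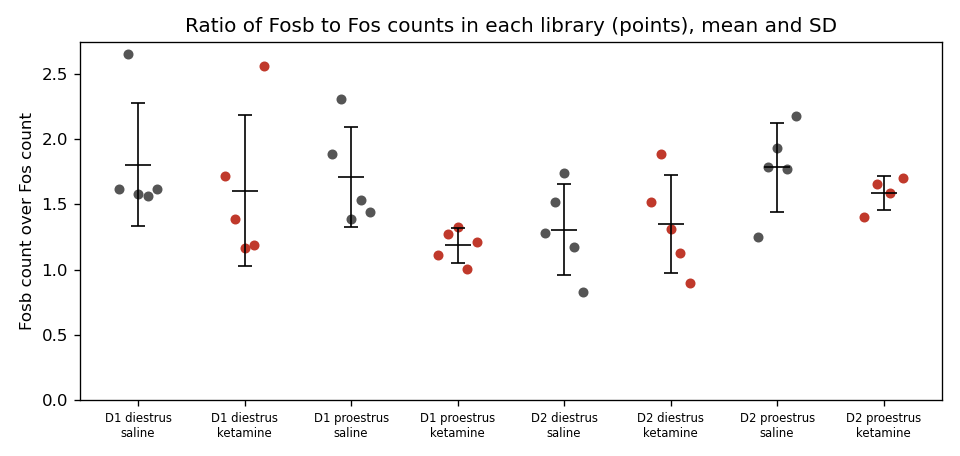
Ratio of the Fosb count to the Fos count in each library (points, linear axis from 0) in the 8 groups, with the mean (long bar) and SD (error bar). In proestrus D1 the 5 ketamine libraries, at 1.00 to 1.33, lie below the 5 saline libraries, at 1.39 to 2.31, and in the other strata the treatments overlap.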

How the data were processed

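Polyribosome-bound RNA from 39 IP libraries was sequenced by the study. According to its methods, the authors trimmed reads with fastp (version 0.23.4) and quantified transcripts with Salmon (version 1.10.2) on mRatBN7.2. The deposited values are expected counts per gene, summed by the authors from transcripts and given as whole numbers, one column per library. Salmon splits reads shared by similar transcripts by estimation, so such genes are less certain. Totals ranged from 2396517 to 43224256 counts per library, which limits Pim1 and Btg2 most, and no 2 libraries held identical values. Input libraries were not used here.

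Groups were taken from the sample titles, and each library carries the number given in its title. The labels give no litter or batch, and according to the authors each treatment group held rats of several litters. Which rats were littermates is not known here, and the p-values treat every rat as independent. Genes with low counts were removed with filterByExpr (minimum count 10), and edgeR (version 4.0.16) was run with TMM normalization, 2 surrogate variables from sva (version 3.50.0) and the quasi-likelihood test. A gene was called at a Benjamini-Hochberg adjusted p under 0.1, over all genes tested. Intervals are 95%. Levels are CPM, and log2 CPM used a prior count of 2. Covariation and ratios were tested by permutation. The ketamine fit in proestrus D1 libraries, by edgeR with and without surrogate variables and by DESeq2, was tested on simulated counts. The other comparisons and the permutation tests were not tested in this way. DESeq2 (version 1.42.0), other filters, other numbers of surrogate variables, a joint model of the 39 libraries, a block term for every 8 successive numbers, and leaving out each library in turn were tried as alternatives. Leaving out libraries 22 and 39 together, the interaction over both stages, the ratios and the covariation and group order without library 11 were added after seeing the data.

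The named genes were the members, the counts over each list with its genes of lowest p in the ketamine comparisons, and the 15 genes most like the mean of the members. Of 23978 identifiers, 1971 were paired with a symbol. The members and lists were chosen with earlier results of these data known. Some list genes are not reported here and were left out of the counts and sums.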

Additional observations from a re-analysis of the deposited data

Results flagged for a closer look

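Of the 64 sets of levels (8 genes in 8 groups), 4 held a library whose gap to its nearest neighbour was large for the range of its group by Dixon's test at 95%, and chance gives such a gap in about 1 in 20 groups. In the diestrus D1 ketamine group library 28 stood above the others, with 34.7 CPM of Fos and 9.87 CPM of Btg2. In the diestrus D2 ketamine group library 16 stood above the others with 51.8 CPM of Fosb. In the proestrus D2 saline group library 37 stood below the others with 198 CPM of Egr1.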

How the results depend on the processing

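In the 4 ketamine comparisons, the 2 cycle comparisons and the interactions no IEG was called under any alternative, including when 1 library at a time was left out. Between cell types the number called depended on the setting. In saline-treated rats 1 IEG was called, against 2 with DESeq2 and 2 surrogate variables, and 0 with no low count filter, with at least 10 counts in every library, with 1 model of 39 libraries or without libraries 22 and 39, and 0 to 3 leaving out 1 library at a time. In ketamine-treated rats 2 were called, against 1 at an adjusted p under 0.05, with no low count filter, with at least 10 counts in every library or with 1 model of 39 libraries, and 0 with no surrogate variables, with 1, with DESeq2 without them or with blocks of library numbers, and 0 to 2 leaving out 1 library at a time. Every library has a number of its own and the labels give no pairs. Each block of 8 successive numbers, which was fitted in place of the surrogate variables, held at most 1 library of each group. The causes of these changes were not tested.

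Some log2 fold changes that were not called turned direction. In proestrus D2-MSNs ketamine estimates became 0.10 for Fos and 0.0114 for Fosb in 1 model of 39 libraries. Egr1 became -0.13 with no surrogate variables, -0.0141 with 1, -0.12 with DESeq2 without them, -0.11 with blocks and -0.20 without libraries 22 and 39. In the same order Egr2 became -0.32, -0.11, -0.33, -0.31 and -0.50, with -0.0100 by DESeq2 with 2 surrogate variables and -0.0288 with no filter. In diestrus D2-MSNs Fos became -0.0218 with no surrogate variables, -0.00071 with 1, -0.0205 with DESeq2 without them and -0.0788 with blocks. Fosb became 0.0250 with DESeq2 without surrogate variables, 0.0184 with at least 10 counts in every library and 0.15 in 1 model, where Egr2 became 0.13. For D2 against D1 in saline-treated rats, Fos became -0.0257 with at least 10 counts in every library, -0.20 in 1 model and -0.00465 without libraries 22 and 39, Fosb 0.0136 with no surrogate variables and 0.00555 with 1, and Egr1 -0.13 and Arc -0.0524 in 1 model. For proestrus against diestrus in D2-MSNs Nr4a1 became -0.0583 without libraries 22 and 39.

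Leaving out 1 library at a time, ketamine estimates in diestrus D1-MSNs ranged from -0.0619 to 0.44 for Fos, -0.0292 to 0.25 for Fosb, -0.0309 to 0.47 for Arc, -0.0976 to 0.40 for Nr4a1, -0.0720 to 0.28 for Btg2 and -0.20 to 0.16 for Pim1. In proestrus D2-MSNs they ranged from -0.35 to 0.27 for Fos, -0.34 to 0.0932 for Fosb, -0.20 to 0.25 for Egr1, -0.55 to 0.0358 for Arc and -0.50 to 0.26 for Egr2. In diestrus D2-MSNs they ranged from -0.15 to 0.26 for Fos, -0.29 to 0.10 for Fosb, -0.36 to 0.15 for Egr2 and -0.13 to 0.13 for Pim1. For D2 against D1 they ranged in saline-treated rats from -0.0950 to 0.27 for Fos and -0.23 to 0.0702 for Fosb, and in ketamine-treated rats from -0.16 to 0.0578 for Fosb, -0.11 to 0.0508 for Egr1, -0.17 to 0.0819 for Nr4a1 and -0.0557 to 0.15 for Pim1. For proestrus against diestrus they ranged from -0.0052 to 0.12 for Fosb in D1-MSNs, and in D2-MSNs from -0.10 to 0.0203 for Fos, -0.12 to 0.0127 for Arc and -0.0070 to 0.18 for Nr4a1.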
